A study of Mus musculus with 16 samples.

Results

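The genes described here are the subunits of the hypoxia-inducible transcription factors (HIFs) and the proteins that set their amount and activity according to oxygen. The set holds 10 genes, namely the subunit genes Epas1, Hif1a, Hif3a and Arnt, the prolyl hydroxylase genes Egln1, Egln2 and Egln3, and Hif1an, Vhl and Cited2. They were chosen by gene symbol, and all 10 were found among the 55359 gene identifiers of every count table. Transcript levels came from bulk RNA sequencing of entire ovaries and kidneys of wild-type CBAF1 female mice aged 21 days. Mice were injected intraperitoneally every 12 h for 4 days with PT-2385 at 7.5 mg/kg or with its vehicle, 5% DMSO in saline. All mice, vehicle-treated mice included, also received 5 IU of PMSG for 48 h and then 5 IU of hCG, and organs were taken 13 h after hCG. The 4 groups (ovary with vehicle, ovary with PT-2385, kidney with vehicle, kidney with PT-2385) had 4 libraries each. PMSG and hCG are gonadotropins that together bring ovarian follicles to ovulation. The compound PT-2385 occupies a pocket of HIF-2 alpha, the protein encoded by Epas1, and so blocks its pairing with ARNT.

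A HIF is a pair of an oxygen-labile alpha subunit (HIF-1 alpha from Hif1a, HIF-2 alpha from Epas1 or HIF-3 alpha from Hif3a) and the stable beta subunit ARNT. In the presence of oxygen the prolyl hydroxylases EGLN1, EGLN2 and EGLN3 modify the alpha subunit, VHL then binds it as part of a ubiquitin ligase, and the proteasome degrades it. The asparaginyl hydroxylase encoded by Hif1an (FIH) blocks the recruitment of the coactivators p300 and CBP, and CITED2 competes with HIF-1 alpha for the same coactivator domain. Egln3, Egln1 and Cited2 are themselves known HIF target genes, which makes them feedback regulators. In the kidney HIF-2 in interstitial cells drives erythropoietin, and in the ovary HIF activity accompanies ovulation and the growth of vessels in the corpus luteum. PT-2385 acts on a protein pair, so a change in the RNA of a HIF subunit is a separate measurement from the action of the drug.

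Assigned read pairs ran from 12689770 to 43295974 per library, both extremes being in the kidney PT-2385 group (replicates 2 and 3). The deposited data of kidney PT-2385 replicate 3 carry another sequencing-run code than the other libraries, and those of ovary vehicle replicate 3 carry a sample number that differs from the label. Calls without either library are given beside the results they change, as names or counts. Organ markers followed the organ labels: the proximal tubule list summed to 21927-24186 counts per 1e+06 (CPM) in vehicle kidney and 38.0-94.4 CPM in vehicle ovary, and Foxl2, Fshr and Cyp19a1, which mark granulosa cells, were at 0 in every kidney library. Ovary RNA was isolated on columns and kidney RNA with Trizol, so organ and isolation method cannot be told apart. Whole organs were sequenced, so fewer cells of a type and less RNA per cell cannot be told apart either. Whether each library stands for its own animal is not stated in the labels, and p-values therefore measure the spread between these libraries.

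The proximal promoters of 3 members are shown because Cited2 and Egln3 gave the clearest differences described below and Egln2 had the most HIF-type motifs of the set. A HIF pair binds the core ACGTG or GCGTG, and both strands were searched, so that a palindromic CACGTG counts as 2 overlapping positions. The sequences are from RefSeq on GRCm38.p6, a build other than the one used for counting, and run from 250 bases before to 50 bases after the gene start. They are written 5′ to 3′ on the gene's strand with the cores in capitals. Cited2 lies at chr10:17722978-17723277 (plus strand), Egln3 at chr12:54203825-54204124 (minus strand) and the first of 2 Egln2 entries at chr7:27166753-27167052 (minus strand).
Cited2: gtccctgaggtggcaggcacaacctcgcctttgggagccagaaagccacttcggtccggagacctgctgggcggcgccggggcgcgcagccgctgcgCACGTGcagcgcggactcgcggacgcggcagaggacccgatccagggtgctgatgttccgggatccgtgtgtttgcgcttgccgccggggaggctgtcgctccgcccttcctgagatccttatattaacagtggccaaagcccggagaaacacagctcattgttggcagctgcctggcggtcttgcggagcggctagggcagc
Egln3: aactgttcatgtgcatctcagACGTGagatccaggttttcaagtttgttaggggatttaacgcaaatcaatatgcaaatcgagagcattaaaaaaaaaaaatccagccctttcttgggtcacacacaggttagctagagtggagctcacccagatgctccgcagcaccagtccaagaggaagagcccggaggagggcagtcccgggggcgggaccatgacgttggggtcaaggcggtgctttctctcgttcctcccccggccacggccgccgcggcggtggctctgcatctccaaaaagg
Egln2: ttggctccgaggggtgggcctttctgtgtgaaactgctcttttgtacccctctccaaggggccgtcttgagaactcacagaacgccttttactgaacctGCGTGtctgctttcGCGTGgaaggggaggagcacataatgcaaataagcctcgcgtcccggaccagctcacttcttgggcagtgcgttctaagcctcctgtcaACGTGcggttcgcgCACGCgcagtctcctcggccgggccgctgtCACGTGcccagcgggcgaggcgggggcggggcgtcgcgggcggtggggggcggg

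In the Cited2 promoter the only match was the palindrome CACGTG, with its cores at -153 and -152 from the gene start. The Egln3 promoter held 1 core, ACGTG at -229. The Egln2 promoter held 6 positions between -151 and -3, a number that 0.694% of promoters reached. Of the other members with an entry, Hif1a held 3 positions, Hif3a and Egln1 2 each, Arnt 1, and Vhl and Hif1an none. Of 32851 promoters of the same length 43.8% held at least 1 core, and 8 of the 10 entries of the 9 members with an entry did. The promoters were not matched to the members in G and C content, which ran from 49.3% to 86% of bases in the members' entries. A match to these letters is a description of the window, not a measured binding site.

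Per length of transcript, Cited2 and Hif1a led the set in the ovary, and Cited2 and Epas1 led it in the kidney. Levels in this paragraph are RPKM, that is read pairs per kilobase of exon and per 1e+06 pairs, scaled over the 16 libraries. In vehicle ovary Cited2 stood at 171 ± 40.2 RPKM (SD, n = 4) and Hif1a at 65.4 ± 11.4 RPKM. Epas1 (28.8 RPKM) and Egln2 (28.5 RPKM) followed with overlapping ranges. Next came Egln1 at 22.7 RPKM, whose range overlapped that of Arnt at 16.7 RPKM, and then Vhl at 11.5 RPKM. The ranges of Hif1an (8.75 RPKM) and Egln3 (7.37 RPKM) overlapped, and Hif3a was lowest at 0.539 RPKM. In vehicle kidney Cited2 (43.8 RPKM) and Epas1 (38.3 RPKM) overlapped at the top, above Egln2 at 30.1, Hif1a at 25.3 and Egln1 at 22.2 RPKM. Arnt at 13.9 RPKM, then Hif1an (10.8 RPKM) and Vhl (9.10 RPKM) with overlapping ranges, stood above Egln3 at 4.67 and Hif3a at 0.351 RPKM.

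**Figure D1:**
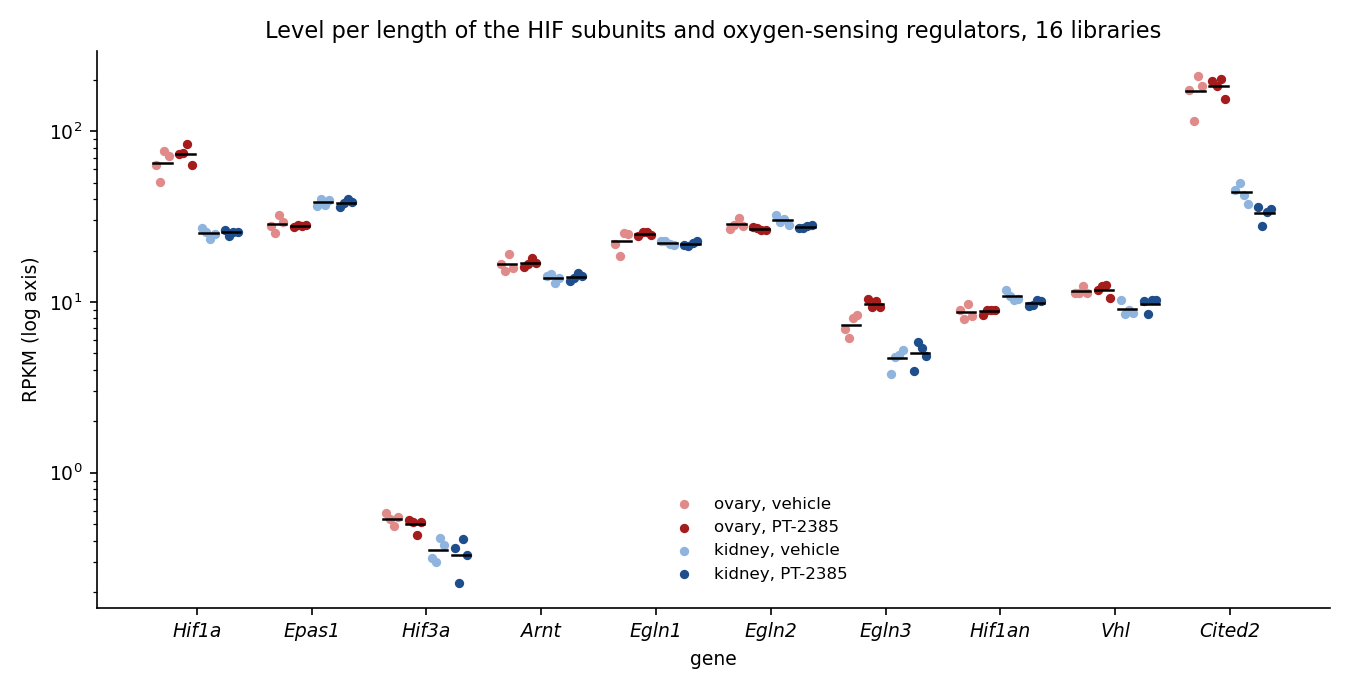
RPKM of each member in the 16 libraries on a log axis, with points for libraries and bars for the mean of 4. Cited2 and Hif1a stand highest in the ovary groups, Hif3a is lowest in all 4 groups, and the kidney points for Epas1 lie above the ovary points on this scaling.

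The choice of alpha subunit transcript separated the organs. The ratio of Hif1a to Epas1 RPKM within a library was 2.26 in vehicle ovary (range 1.99-2.44) and 0.662 in vehicle kidney (range 0.631-0.744), so that Hif1a exceeded Epas1 in every ovary library and fell short of it in every kidney library. With PT-2385 the same ratio was 2.64 in the ovary (range 2.24-3.01) and 0.669 in the kidney (range 0.634-0.742), each overlapping its vehicle range. The 2 alpha transcripts together were 5.64 times Arnt in vehicle ovary and 4.58 times Arnt in vehicle kidney. Cited2 was 1.80 times the sum of Hif1a and Epas1 in vehicle ovary and 0.689 times that sum in vehicle kidney. Among the prolyl hydroxylases Egln2 gave the largest share of the summed RPKM in both organs, 48.8% in vehicle ovary and 52.8% in vehicle kidney. Egln1 gave 38.6% and 39.0%, and Egln3 12.6% and 8.22%. These ratios were formed after the values were seen and carry no test, and they do not depend on scaling between libraries.

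**Figure D2:**
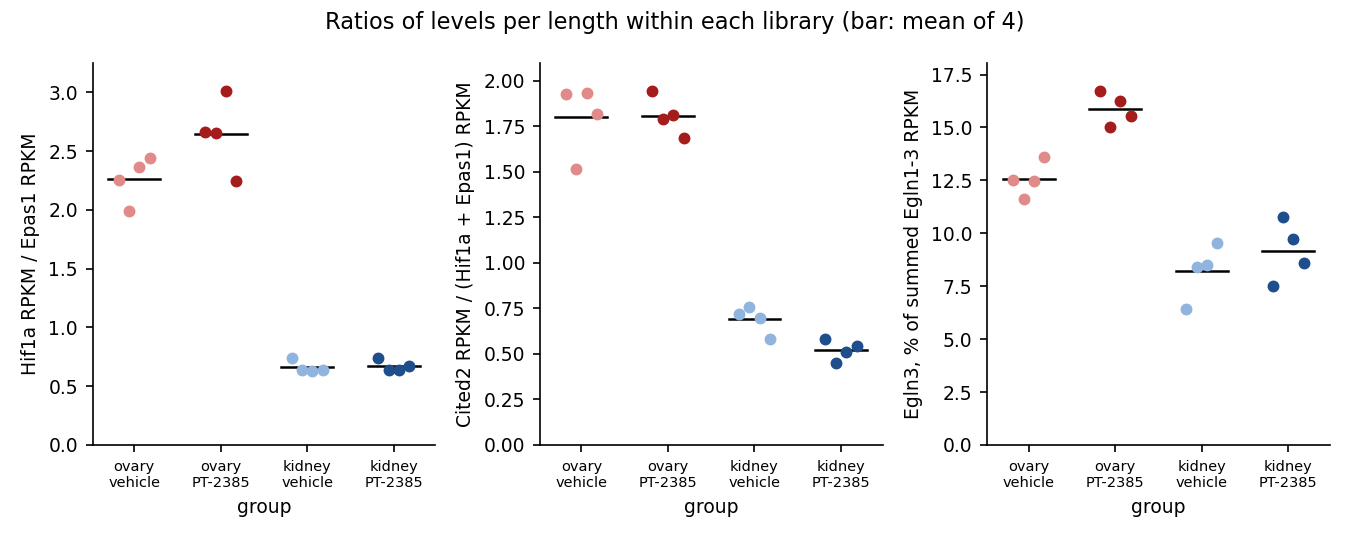
Ratios of RPKM within each library, with the 4 libraries of a group as points and their mean as a bar. The Hif1a to Epas1 ratio lies above 1 in all 8 ovary libraries and below 1 in all 8 kidney libraries, and the Cited2 ratio of the kidney groups and the Egln3 share of the ovary groups do not overlap between drug and vehicle.

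Vehicle ovary was then compared with vehicle kidney. Cited2 was 3.93-fold higher in ovary (log2 difference 1.98 ± 0.165, SE, edgeR adjusted p = 3.6e-07) and Hif1a was 2.60-fold higher (1.38 ± 0.115, adjusted p = 1.0e-07). Egln3 (0.67), Hif3a (0.63), Vhl (0.35) and Arnt (0.27) were also higher in ovary, whereas Epas1 (-0.40, adjusted p = 0.000476) and Hif1an (-0.30, adjusted p = 0.0028) were lower. Egln1 (0.040, 95% interval -0.16 to 0.24) and Egln2 (-0.072, interval -0.22 to 0.081) did not pass the threshold. Thus 8 of 10 members were called, 6 higher and 2 lower, at an adjusted p under 0.05, while 81.6% of the 18923 genes tested were called in the same comparison (40.9% higher and 40.7% lower), so a share of this size is the background for these organs.

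The direction of the smaller organ differences depended on how libraries were scaled. The 10 most abundant transcripts took 27.2% of all TPM (transcripts per 1e+06) in vehicle kidney and 12.8% in vehicle ovary. On the TPM scale, where the median gene tested was 0.41 log2 higher in ovary, all 10 members had higher means in ovary, with overlapping ranges for Epas1 (82.5 ± 7.66 against 76.6 ± 4.10 TPM) and Hif1an (25.1 ± 2.31 against 21.7 ± 1.99 TPM). Relative to that median, the TPM difference of Epas1 (0.11) and that of Hif1an (0.21) lay below it and those of Cited2 (2.48) and Hif1a (1.89) far above it. With library totals in place of TMM scaling, the differences of Egln2 (0.17, adjusted p = 0.0263) and Egln1 (0.28, adjusted p = 0.0066) were called higher in ovary, and Hif1an was no longer called (-0.057, adjusted p = 0.4765). Epas1 remained lower in ovary (-0.16, adjusted p = 0.0483). The sign of Egln2 also turned with upper-quartile scaling (0.012).

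In the kidney 1 member, Cited2, was called lower with PT-2385 in the main fit, and the HIF subunit transcripts lay close to their vehicle levels. Cited2 was at 103.2, 112.6, 96.1 and 85.5 CPM in the 4 vehicle libraries and at 83.4, 65.6, 75.6 and 79.8 CPM in the 4 PT-2385 libraries. All 4 treated libraries lay below all 4 vehicle libraries, although the lowest vehicle and highest treated values were close. The group means were 99.3 ± 11.4 and 76.1 ± 7.70 CPM (SD, n = 4), and Cited2 fell by 0.38 on the log2 scale (SE 0.0871, 95% interval -0.57 to -0.19, 0.768-fold), with an edgeR adjusted p of 0.0295. Thus 1 of 10 members was called, and 5.53% of the 17763 genes tested in kidney were called, 325 higher (1.83%) and 657 lower (3.7%). A count of 1 in 10 cannot be told from that share. DESeq2 (adjusted p = 0.000784) and limma-voom (adjusted p = 0.0277) also called Cited2 lower, where they called 8.26% and 6.22% of all genes.

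The Cited2 call was lost when any of 5 of the 8 libraries was left out, and its direction was kept in all 8 cases. Leaving out 1 library at a time kept a negative difference between -0.45 and -0.32. The adjusted p rose above 0.05 without vehicle replicate 1 (0.101), 2 (0.0681) or 3 (0.0504) and without PT-2385 replicate 3 (0.0952) or 4 (0.0730). It stayed under the threshold without vehicle replicate 4 (0.00562) and without the first (0.0324) or the second (0.0332) PT-2385 library. PT-2385 replicate 3 is the library with the other run code, and the difference without it was -0.38. With both organs in 1 fit, which shares the spread with the more variable ovary libraries, the difference was -0.40 and the adjusted p 0.220.

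Cited2 is counted among HIF target genes, and the alpha subunits stood apart from it in the kidney. Epas1, the gene of the drug's own target, measured 185.0, 203.8, 189.8 and 201.4 CPM under vehicle and 185.4, 201.1, 203.8 and 197.8 CPM with PT-2385. The 2 groups covered almost the same range, and the difference was 0.015 (95% interval -0.089 to 0.12, adjusted p = 0.893). Hif1a was at 127.3 ± 7.26 and 130.0 ± 4.33 CPM (difference 0.030, interval -0.075 to 0.14). Arnt was at 61.9 ± 2.89 and 63.1 ± 2.36 CPM (difference 0.027, interval -0.081 to 0.13). For these 3 subunits the intervals excluded changes beyond 0.14 log2 in either direction. Hif3a, which had only 18 to 107 read pairs per kidney library, left a wider interval of -0.39 to 0.38. Cited2 relative to the sum of Hif1a and Epas1 RPKM went from 0.689 (range 0.583-0.757) to 0.520 (range 0.448-0.580), without overlap, as a description of the same libraries.

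The hydroxylases of the kidney moved little. Hif1an, the asparaginyl hydroxylase gene, was at 67.3, 62.0, 59.2 and 59.7 CPM under vehicle and 54.9, 56.7, 58.5 and 58.3 CPM with PT-2385. These groups did not overlap, but the gap between them was smaller than the range within either, and the difference of -0.12 had an edgeR adjusted p of 0.187. Egln2 was at 61.3 ± 3.61 and 56.9 ± 0.756 CPM (difference -0.11, adjusted p = 0.223). Egln1 was at 73.7 ± 1.63 and 73.6 ± 1.64 CPM, the smallest difference of the set in kidney, with an interval of -0.095 to 0.093. Egln3 was at 11.5 ± 1.55 and 12.4 ± 2.08 CPM (difference 0.10, interval -0.15 to 0.36). Vhl, the substrate receptor of the ligase, was at 23.5 ± 2.16 and 25.5 ± 1.96 CPM (difference 0.13, adjusted p = 0.329). Non-overlapping groups were found for 2 of 10 members (Cited2 and Hif1an), against 13.3% of all genes tested in kidney.

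**Figure D3:**
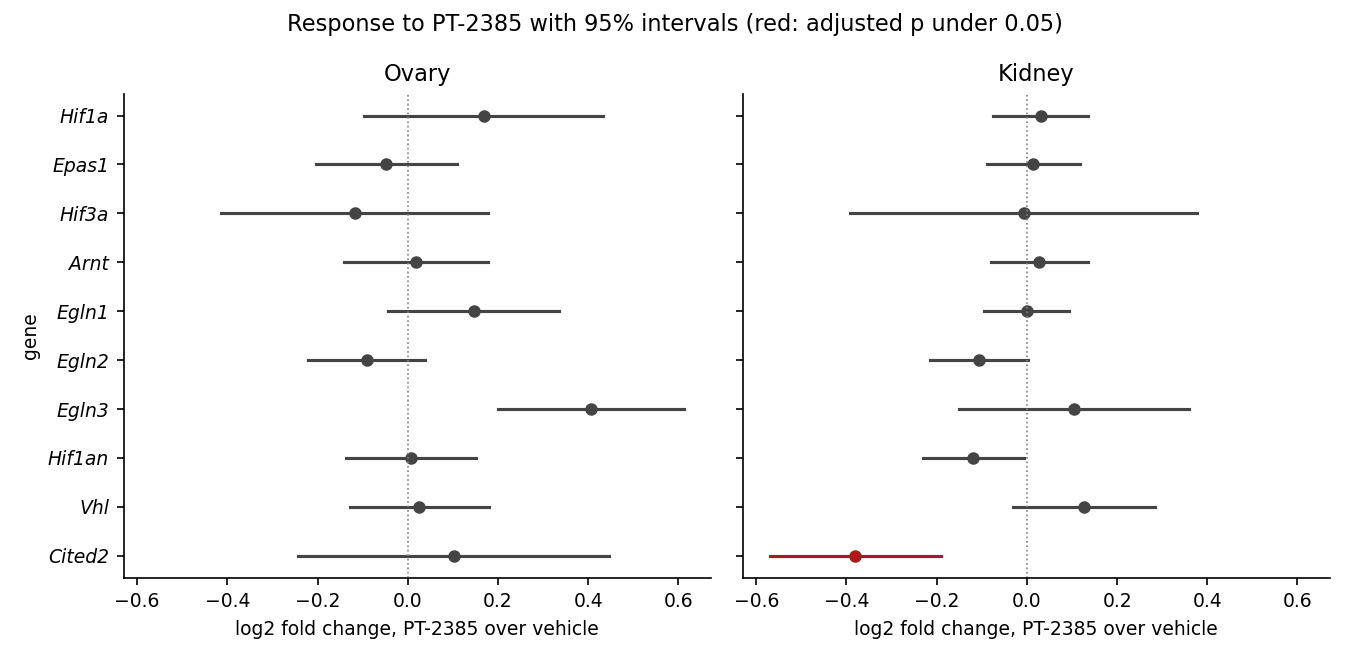
Log2 fold change of each member, PT-2385 over vehicle, as points with 95% intervals in ovary and kidney. Cited2 in kidney (-0.38) is the single member with an adjusted p under 0.05, and the Egln3 interval in ovary (0.20 to 0.61) also lies away from 0 without passing the adjusted threshold.

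In the ovary no member passed the threshold, and Egln3 came nearest to it. Egln3, the prolyl hydroxylase gene most often described as hypoxia-inducible, was at 19.9, 17.8, 22.8 and 24.0 CPM under vehicle and at 29.8, 26.7, 28.8 and 26.8 CPM with PT-2385. All 4 treated libraries lay above all 4 vehicle libraries. The means were 21.1 ± 2.83 and 28.0 ± 1.52 CPM, a 1.33-fold difference (log2 difference 0.41, SE 0.0952, 95% interval 0.20 to 0.61), and the edgeR adjusted p was 0.124. The count of called members was 0 of 10 with edgeR and with limma-voom. It was 1 of 10 with DESeq2, which called Egln3 higher (adjusted p = 0.0189) and called 1.78% of all genes tested (322 genes). At an unadjusted p under 0.05 there was 1 of 10, Egln3, against 13.2% of all genes. In the ovary 0.0497% of the 18125 genes tested were called (9 genes), and 6.95% had groups without overlap, as did 1 of 10 members.

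Egln3 in the ovary kept its sign in every alternative run, with differences between 0.33 and 0.47 and adjusted p-values between 0.00726 and 0.461. Without vehicle replicate 3, the library with the differing number, the difference was 0.45 and the adjusted p 0.0264. Leaving out that library raised the number of genes called in the ovary from 9 to 1090. Within the prolyl hydroxylases the Egln3 share of summed RPKM was 12.6% with vehicle (range 11.6-13.6%) and 15.9% with PT-2385 (range 15.0-16.7%). The Egln2 share was 48.8% (range 45.5-53.4%) and 43.4% (range 42.2-44.1%). Neither pair of ranges overlapped, and the Egln1 shares, 38.6% and 40.7%, did overlap. These shares were formed after the values were seen and carry no test. They add up to a fixed total, so the lower Egln2 share is not independent of the higher Egln3 share. The CPM of Egln2 itself overlapped between the ovary groups (log2 difference -0.091).

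The ovarian alpha subunits showed no difference beyond the spread. Epas1 was at 166.0, 152.5, 190.0 and 174.8 CPM under vehicle and at 163.8, 166.3, 164.5 and 166.5 CPM with PT-2385. The treated libraries fell inside the vehicle range and within 3 CPM of each other, a coefficient of variation of 0.806%. The difference was -0.048 (interval -0.20 to 0.11, adjusted p = 0.818). Hif1a was at 369.5, 299.2, 444.2 and 421.2 CPM under vehicle and at 430.5, 436.4, 488.8 and 368.8 CPM with PT-2385. These ranges overlapped widely, and the difference was 0.17 (interval -0.096 to 0.43, adjusted p = 0.576). Hif3a, with 63 to 125 read pairs per ovary library, was at 3.78 ± 0.276 and 3.49 ± 0.312 CPM (difference -0.12, interval -0.41 to 0.18).

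Arnt in the ovary was at 86.8 ± 8.44 and 87.9 ± 4.14 CPM (difference 0.019). Vhl was at 34.7 ± 1.45 and 35.4 ± 2.69 CPM (difference 0.026), and Hif1an at 58.4 ± 4.72 and 58.7 ± 1.82 CPM (difference 0.0078, with a sign that turned with upper-quartile scaling). Egln1 was at 87.7 ± 12.0 and 97.1 ± 3.00 CPM (difference 0.15, adjusted p = 0.499), and Egln2 at 67.6 ± 4.17 and 63.5 ± 1.41 CPM (difference -0.091, adjusted p = 0.534). Cited2, the member called lower in kidney, was at 463.4, 307.0, 551.1 and 487.4 CPM under vehicle and 518.4, 484.7, 532.7 and 405.4 CPM with PT-2385. The treated libraries lay within the vehicle range, and the difference was 0.10 (interval -0.24 to 0.45, adjusted p = 0.824). For 9 of 10 members the ovarian 95% interval lay within 0.5 log2 of 0, Egln3 being the exception. For kidney the same count was 9 of 10, with Cited2 as the exception.

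The vehicle ovary group was the most variable for these genes. The median coefficient of variation of RPKM over the 10 members was 10.2% in vehicle ovary, 5.10% in treated ovary, 5.98% in vehicle kidney and 4.87% in treated kidney. Vehicle ovary replicate 2 was the lowest of its group for 7 of 10 members, against 30.2% of all genes, and replicate 3 the highest for 7 of 10, against 33.7% of all genes. Cited2 spanned 307.0 to 551.1 CPM between those 2 libraries and Hif1a 299.2 to 444.2 CPM.

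**Figure D4:**
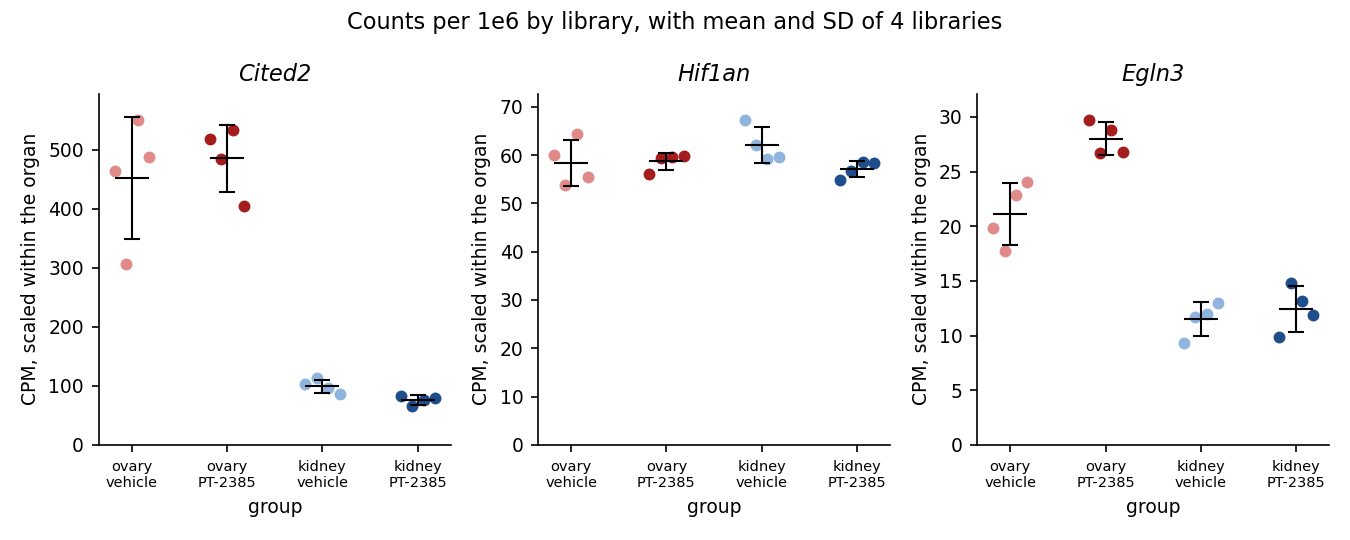
CPM of Cited2, Hif1an and Egln3 in each library, scaled within the organ, with the group mean and SD of 4 libraries. Drug and vehicle libraries do not overlap for Cited2 and Hif1an in kidney and for Egln3 in ovary, and they overlap in the other organ.

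Whether PT-2385 acted differently in the 2 organs was tested as an interaction over all 16 libraries. No member passed the threshold with edgeR, DESeq2 or limma-voom, against 0.19% of the 19977 genes tested (38 genes with edgeR). At an unadjusted p under 0.05 there was 1 of 10 members, Cited2, against 12% of all genes. Its response was 0.50 log2 higher in ovary than in kidney (SE 0.212, 95% interval 0.051 to 0.95, adjusted p = 0.365). For Egln3 the response was 0.32 higher in ovary (interval -0.025 to 0.66, adjusted p = 0.453). The kidney response of Cited2 and the ovary response of Egln3 were therefore not shown to be limited to their organ. Without both libraries with deviating names the differences were 0.62 for Cited2 and 0.41 for Egln3, and again no member was called.

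Transcripts downstream of HIF and around the members gave a further reading. Vegfa, the vascular growth factor gene, was at 382.4 ± 15.2 and 410.3 ± 23.1 CPM in kidney (difference 0.10, adjusted p = 0.245) and at 270.9 ± 33.5 and 279.4 ± 19.6 CPM in ovary (difference 0.044, adjusted p = 0.878). Arnt2, another ARNT-type partner, differed by -0.046 in kidney and 0.12 in ovary. Epo, the erythropoietin gene and a HIF-2 target of kidney interstitial cells, had 3, 2, 0 and 2 read pairs in the vehicle kidney libraries and 8, 1, 19 and 17 in the PT-2385 kidney libraries. These counts were too low for the test, 12.2% of the Epo exon bases are shared with Gnb2, and the ovary libraries had 0 or 1 read pair each. Pgr, the progesterone receptor gene, was at 2.14 ± 0.589 and 4.15 ± 1.63 CPM in ovary (difference 0.94, interval 0.35 to 1.54, adjusted p = 0.207), and in kidney the difference was 0.33 (adjusted p = 0.321).

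The 6 lists of genes around the members held 124 genes in all, of which 118 could be tested in kidney and 120 in ovary. The lists were chosen with earlier results of these data known, so their counts are descriptions and not tests. In kidney 3 rose and 12 fell, or 12.7% against the 5.53% of all genes, and the median difference of the lists was 0.0026 against 0.0066 for all genes. Leaving out single libraries changed this count strongly, together with the share of all genes called. It was 1 without vehicle replicate 2 (1.5% of all genes called) and 2 without PT-2385 replicate 3 (1.33%). It was 3 without PT-2385 replicate 4 (1.59%) and 7 without PT-2385 replicate 1 (2.95%). These were the runs with the fewest genes called, and the remaining leave-outs called 920 to 1370 genes. With both organs in 1 fit the list count was 4, against 1.43% of all genes. Without PT-2385 replicate 3 Ak4 (adjusted p = 0.0450) and Mtor (0.0469) stayed under the threshold. The other 13 kept their sign but not their call, with adjusted p-values from 0.0562 (Per2) to 0.155 (Pgk1). In ovary 0 of 120 were called with edgeR and with limma-voom, 2 with DESeq2 (Adm lower and Arntl higher), which called 1.78% of all genes. An unadjusted p under 0.05 was found for 24 of 120, against 13.2% of all genes. Without ovary vehicle replicate 3, 9 rose and 1 fell, while 5.9% of all 18481 genes tested were called, 606 higher and 484 lower.

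Among 24 hypoxia-induced genes, 5 of 23 tested in kidney fell and none rose, against 3.7% and 1.83% of all genes. This list too was chosen with earlier results known, so the count is a description and not a test. They were Ak4, a mitochondrial adenylate kinase (-0.36, from 318.8 ± 36.5 to 248.7 ± 10.1 CPM, adjusted p = 0.00961), the mitophagy receptor genes Bnip3 (-0.26) and Bnip3l (-0.20), Ndrg1 (-0.24) and the glycolytic gene Pgk1. The list's median in kidney was 0.011 because its other members lay on both sides of 0. Ak4 was called when any 1 library was left out, and it was the only gene of the list called without vehicle replicate 2 and without either of PT-2385 replicates 3 and 4. In ovary none of 23 was called with edgeR and 10 had an unadjusted p under 0.05, against 13.2% of all ovary genes. Differences were positive for 20 of 23, against 49.2% of all ovary genes, with a median of 0.19. The smallest p belonged to Adm, the adrenomedullin gene, at 36.2 ± 7.95 and 23.3 ± 1.81 CPM (-0.63, adjusted p = 0.109), opposite in sign to the median, and DESeq2 called it lower. Pfkfb3, a regulator of glycolysis, differed by 0.32 (adjusted p = 0.174).

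Some genes that act on the alpha subunits, and some genes of other oxygen-using dioxygenases, were called in kidney. The shares over all kidney genes were 3.7% lower and 1.83% higher. A count of 1 in any of these lists cannot be told from those shares. Of the 13 genes of the VHL ubiquitin ligase and its partners, 1 fell in kidney, the deubiquitinase gene Usp20 (-0.21, adjusted p = 0.0235), and none was called in ovary. Of 26 genes for HIF alpha stability and modification, 3 fell in kidney: Mtor, a kinase that promotes HIF-1 alpha synthesis (-0.31, adjusted p = 0.0123), Siah2, a ligase for prolyl hydroxylases (-0.27), and Ubxn7, an adaptor that links VHL substrates to the p97 ATPase (-0.23). Of 25 other oxygen-using dioxygenases, 1 fell in kidney, the RNA demethylase gene Fto (-0.20), and 1 rose, Jmjd6 (0.29). In ovary the smallest p-values of these lists belonged to Ube2d2a (0.14), Ptges3 (0.25) and Jmjd6 (0.33), with adjusted p-values of 0.339, 0.269 and 0.172.

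Among 21 coactivators and corepressors, 19 were tested in kidney, where Max rose (0.21) and the coactivator gene Ncoa2 fell (-0.24). Over all kidney genes 1.83% rose and 3.7% fell, and single calls in lists of this size cannot be told from those shares. CITED family member Cited4 was at 76.0 ± 18.7 and 103.4 ± 13.9 CPM in ovary (difference 0.44, adjusted p = 0.306). Among 16 other bHLH-PAS factors, the protein family that HIF subunits belong to, the clock gene Per2 rose in kidney (0.60, from 12.9 ± 1.15 to 19.3 ± 3.70 CPM, adjusted p = 0.0124) and Npas2 fell (-0.35, adjusted p = 0.0147). In ovary the clock gene Arntl, also called Bmal1, was at 54.0 ± 3.67 and 67.7 ± 3.32 CPM (difference 0.33, adjusted p = 0.0842). In the interaction 0 of 122 listed genes were called with edgeR or limma-voom and 6 with DESeq2, which called 1.52% of all genes. With edgeR 23 had an unadjusted p under 0.05, against 12% of all genes. Without both libraries with deviating names 7 were called higher in ovary and 2 lower. In that run 1.87% of all 20254 genes tested were called, 254 higher and 124 lower.

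**Figure D5:**
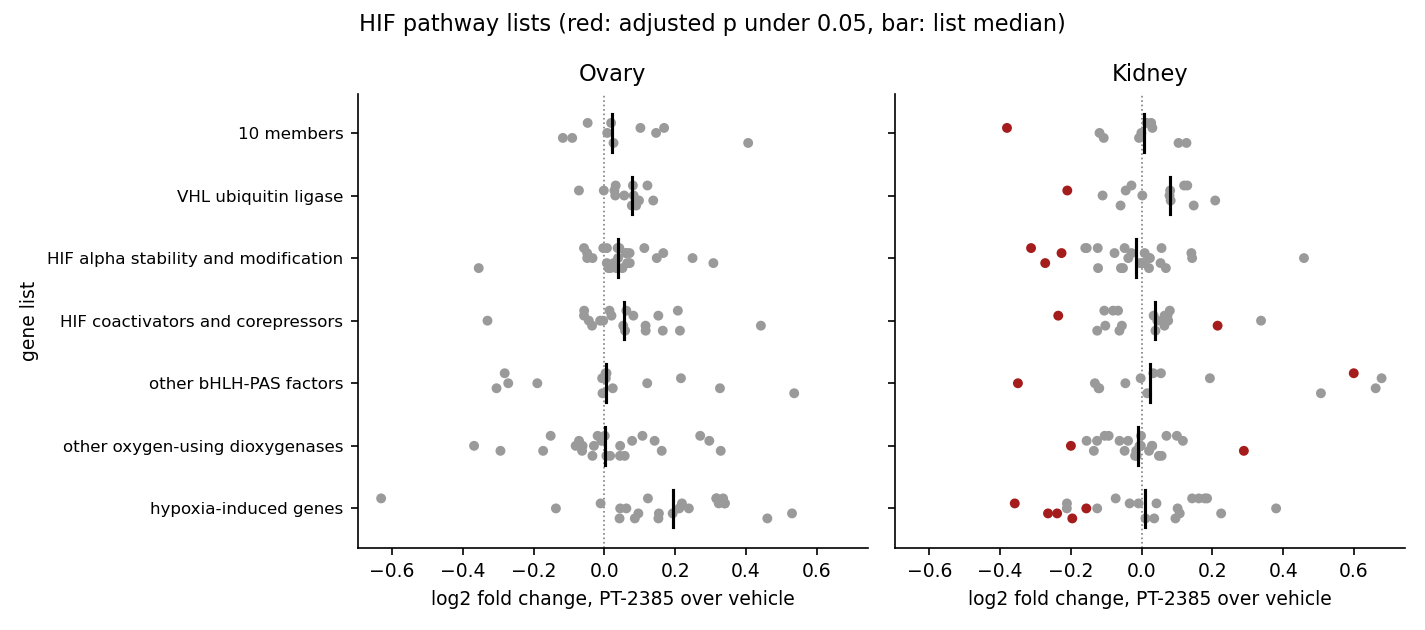
Log2 fold change of every tested gene in the 10 members and in 6 lists of the HIF pathway, in ovary and kidney, with a bar at each list's median. The red points, edgeR adjusted p under 0.05, occur in kidney alone, where 5.53% of all genes were called against 0.0497% in ovary. They lie mostly below 0, and the ovary median of the hypoxia-induced genes lies at 0.19.

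Some markers of other cell types differed between the kidney groups, and their part in the differences above was not tested. Over all genes tested in kidney 3.7% fell, 1.83% rose and 51.55% of differences were positive. A single call in a marker list cannot be told from those shares. Of 10 proximal tubule markers, 9 were negative with PT-2385 and 3 fell (Aqp1 -0.37, Slc13a3 -0.29, Cubn -0.44), with sums of 21927-24186 CPM in vehicle and 20188-22186 CPM in treated kidney. All 6 podocyte markers were positive and 2 rose (sums 614.2-748.8 and 743.3-864.2 CPM), and all 15 endothelial markers were positive and 1 rose, Cldn5 (sums 1070-1155 and 1117-1275 CPM). Of 10 macrophage markers 9 were negative and 1 fell, Csf1r (sums 131.2-142.0 and 110.8-125.9 CPM). Of 11 pericyte and interstitial markers 8 were positive and 2 rose, Myh11 (0.26) and Des (0.30), with sums of 739.3-847.4 and 776-872.7 CPM. Without PT-2385 replicate 3, where 1.33% of all genes were called, Aqp1, Slc13a3, Csf1r and Myh11 were still called. In that run Cubn (adjusted p = 0.0835), Cldn5 (0.0924), Des (0.0757) and both podocyte genes, Wt1 (0.104) and Synpo (0.127), were not. In the ovary 14 of 15 endothelial markers were negative and none was called with edgeR, with 5 at an unadjusted p under 0.05 (sums 969.2-1230 CPM under vehicle and 907.4-1009 CPM with PT-2385). Other ovary marker lists also held differences, none of them called with edgeR. Of 10 macrophage markers 8 were negative, and 2 had an unadjusted p under 0.05. Of 10 granulosa and luteal markers 5 were positive and 5 negative, from -0.64 to 1.035, with 3 at an unadjusted p under 0.05. Of 11 pericyte and interstitial markers 6 were positive and 5 negative, with 2 at that level. Over all ovary genes 49.2% of differences were positive and 13.2% had an unadjusted p under 0.05.

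The genes most like a member across the 16 libraries were ranked by the mean absolute difference of centred log2 levels among 13903 candidates. For Epas1 they were Ddr1 (0.047), Clstn1 (0.047) and Fam234a (0.048), all within 0.05 log2 of the Epas1 pattern on average. For Hif3a they were Psmg3 (0.081), Zkscan6 (0.081) and Zfp141 (0.089). For Egln3 they were Jam3 (0.095), Slc3a2 (0.099) and Slc16a1 (0.11). The libraries compared share their organs, depth and scaling, and the measure carries no test.

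On GRCm39, the build of the count tables, Epas1 is at chr17:87061128-87140838, Hif1a at chr12:73948149-73994304, Egln3 at chr12:54225767-54250646, Cited2 at chr10:17598966-17601422 and Hif1an at chr19:44551289-44564713. Counts were taken over annotated exons, with no strand setting recorded. Reads of Hif1a could be shared with other annotated genes over 8.77% of its exon bases and those of Egln2 over 0.499%, and the other 8 members had no such overlap.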

How the data were processed

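Values were whole-number counts of read pairs per gene, deposited by the authors. Per the file headers they were made with featureCounts 2.0.6 over exons of the GENCODE vM27 basic annotation (GRCm39), counting pairs and giving no strand setting. FastQC and STAR are named in the submitters' processing notes without a version. Libraries were grouped by organ and treatment from the labels, 4 per group, and 0.681-3.14% of counts per library lay on identifiers without a symbol. Genes were filtered with filterByExpr, scaled by TMM and tested with edgeR 4.0.16 (quasi-likelihood, Benjamini-Hochberg adjustment over all genes tested, threshold 0.05), separately for each organ, for the interaction and for vehicle ovary against vehicle kidney. The fits were tested on simulated counts. CPM, RPKM and TPM were computed from the counts. Named genes were the 10 members, Pgr, Vegfa, Epo and Arnt2, up to 4 called genes of each list by p (otherwise the 2 smallest p-values), and 3 genes most like Epas1, Hif3a and Egln3. Pgk1 was named after its value was seen. Members and lists were chosen with earlier results of these data known. Alternatives used DESeq2 1.42.0, limma-voom 3.58.1, other scalings and filters, a replicate block and each library left out.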

Additional observations from a re-analysis of the deposited data

Results flagged for a closer look

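In 4 of 40 groups of 4 libraries tested, 1 library lay far from the other 3 relative to the group's range by Dixon's criterion at 95%. Chance alone flags about 1 of 20 groups, and whether 4 of 40 exceeds that rate was not tested. Egln1 in kidney PT-2385 replicate 4 stood at 76.03 CPM, above the other 3 at 72.46 to 72.98 CPM. Hif1an in ovary PT-2385 replicate 1 stood at 55.97 CPM, below 59.38 to 59.76 CPM. Vhl in ovary vehicle replicate 3, the library with the differing number, stood at 36.89 CPM, above 33.81 to 34.21 CPM. Vhl in kidney PT-2385 replicate 2, the library with the fewest read pairs, stood at 22.53 CPM, below 26.37 to 26.55 CPM.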

How the results depend on the processing

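The number of genes called depended on the method more than the members' differences did. In ovary it was 9, and 322 with DESeq2, 3 with limma-voom, 330 with no filter, 395 with the replicate block and 325 with all 16 libraries in 1 fit, and 0-1090 with each library left out. Members called in ovary rose from 0 to 1 with DESeq2, no filter and the replicate block (Egln3, block difference 0.41, adjusted p = 0.0339), and were 0-1 with each library left out. In kidney the genes called were 982, and 1761 with no filter, 286 with all 16 libraries and 240-1370 with each library left out. Members called there fell from 1 to 0 with the replicate block (Cited2 -0.38, adjusted p = 0.0716) and with all 16 libraries, and were 0-1 with each library left out. In the interaction 38 genes were called, and 20 with median-ratio size factors, 304 with DESeq2, 167 with no filter, 20 with the replicate block, 378 without both libraries with deviating names (chosen after the data were seen) and 0-813 with each library left out. Signs turned for small drug differences with adjusted p-values over the threshold. These were Hif1an in ovary with upper-quartile scaling (-0.0048), Egln1 in kidney with upper-quartile scaling (0.0019) and the 1 CPM filter (1.08e-05), Hif3a in kidney with limma-voom (0.016), Epas1 in kidney with all 16 libraries (-0.0021), and in the interaction Arnt with upper-quartile scaling (-0.018) and no filter (-0.0014) and Epas1 without both deviating libraries (0.045). Between organs Egln2 turned with upper-quartile scaling (0.012) and library totals (0.17, where it was called). With each library left out, ranges crossed 0 in ovary for Epas1 (-0.099 to 0.0087), Arnt (-0.021 to 0.088), Hif1an (-0.029 to 0.059) and Cited2 (-0.045 to 0.21). They did so in kidney for Epas1 (-0.0099 to 0.043), Hif1a (-0.0033 to 0.063), Hif3a (-0.13 to 0.085), Arnt (-0.0035 to 0.051) and Egln1 (-0.017 to 0.0094). In the interaction they did for Epas1 (-0.097 to 0.018), Hif3a (-0.19 to 0.044), Arnt (-0.057 to 0.085) and Egln2 (-0.0011 to 0.081). Causes were not tested. Same-numbered libraries of drug and vehicle correlated between -0.323 and 0.433 in ovary and between -0.112 and 0.192 in kidney, and 2 and 1 of 4 correlated best with their own number. Ovary and kidney libraries of 1 number correlated between -0.0296 and 0.0908 under vehicle (3 of 4 best with their own number) and between -0.0748 and 0.19 under PT-2385 (3 of 4). By chance alone a library would match best with its own number in 1 of 4 cases. Most of these pairs between organs matched best with their own number, with no correlation above 0.19. Pairing was neither established nor excluded. Whether ovary and kidney of 1 number came from 1 mouse is not stated, and the main fits over both organs treat them as independent. With the replicate block no member was called in the interaction either. Depth limits Hif3a and Epo most, with 18-125 and 0-19 read pairs per library.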
